A study of Mus musculus with 3 samples.

Results

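The 10 genes described here, *Pi16*, *Dpp4*, *Cd34*, *Clec3b*, *Scara5*, *Efhd1*, *Itih5*, *Ly6a*, *Ly6c1* and *Sema3c*, are commonly used to mark universal or adventitial fibroblast progenitors. They were chosen by symbol, with earlier results of these data known, from the 31053 genes of the count files. All 10 were found, each in 1 row. Cells of this kind lie around vessels and in the fascia under the skin, and are regarded as an uncommitted reserve from which more specialised fibroblasts, fat cells and scar-forming cells can arise. No single member is specific to them, so the set is read jointly: a cell that holds many of the transcripts at the same time is a better candidate than a cell that holds 1.

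The libraries came from heterotopic ossification masses of female CD-1 mice aged 6 to 8 weeks, collected on day 5 after injection of growth factor-reduced Matrigel under the ventral skin. Matrigel-only masses held no BMP2 and their mice received no drug or carrier. Vehicle masses held recombinant BMP2, which induces cartilage and then bone at the site, and their mice were gavaged with the carrier (corn oil/DMSO). Vehicle thus differed from Matrigel-only in both BMP2 and carrier, and their parts cannot be told apart. Palo masses held the same BMP2 and their mice received palovarotene, an agonist of the retinoic acid receptor gamma, at 4 mg/kg daily. Each group is 1 droplet library of cells dissociated from several masses, and no difference between groups has a replicate check, so none was tested. The intervals below cover counting error only. Vehicle enters both the comparison with Matrigel-only and the comparison with Palo, and those values stand side by side without being independent.

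Levels were measured in stromal cells, defined as cells in which *Col1a1*, *Col1a2*, *Col3a1*, *Dcn* and *Lum* made up at least 1% of the UMIs (unique molecular identifiers, 1 per captured transcript). There were 2085 such cells among 8728 in Matrigel-only, 1373 among 5478 in Vehicle and 1184 among 7297 in Palo. Cells close to the limit were few: 38, 99 and 8 cells lay between 1% and 2%, and 56, 52 and 10 between 0.5% and 1%. The 10 further stromal genes that were checked, among them *Pdgfra*, *Prrx1* and *Col5a1*, were all above 0 and together reached 16711, 13549 and 15552 CPM (UMIs of a gene over all UMIs of those cells, times 1e6). Of these, *Fstl1* (6456, 1924 and 5344 CPM), *Pdgfra* (246, 89.2 and 205) and *Prrx1* (725, 373 and 734) were lowest in Vehicle. Apart from *Mmp2*, the others were highest there, such as *Col6a1* (1495, 2048 and 1675). Stromal cells had a median of 9082, 17114 and 12955 UMIs, so shares of cells with a UMI were computed after thinning every cell to 3100 UMIs, which kept 1878, 1303 and 1130 cells and left out 207, 70 and 54. Between 11 and 21 barcodes occurred in a pair of libraries. A CPM summed over cells falls alike when fewer cells express a gene and when each cell holds less of its RNA, and these cannot be told apart from the CPM alone.

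Upstream sequence is shown for the 3 members with the lowest Vehicle levels relative to Matrigel-only, *Dpp4*, *Efhd1* and *Itih5*, and for *Ly6c1*, the only member whose searched window held a retinoid receptor half-site. The windows run over the 250 bases before a transcription start annotated by RefSeq (GRCm38.p6, the mm10 build of the files), 5′ to 3′ along the gene: chr2:62412232-62412481 on the minus strand for *Dpp4*, chr1:87264103-87264352 on the plus strand for *Efhd1*, chr2:10153293-10153542 on the plus strand for *Itih5*, and chr15:75048838-75049087 on the minus strand for the more distal of the *Ly6c1* starts.
Dpp4: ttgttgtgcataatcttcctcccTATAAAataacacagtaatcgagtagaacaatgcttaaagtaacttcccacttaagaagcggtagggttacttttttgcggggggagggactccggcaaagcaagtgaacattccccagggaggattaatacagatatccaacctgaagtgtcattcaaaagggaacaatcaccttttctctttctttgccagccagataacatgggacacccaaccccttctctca
Efhd1: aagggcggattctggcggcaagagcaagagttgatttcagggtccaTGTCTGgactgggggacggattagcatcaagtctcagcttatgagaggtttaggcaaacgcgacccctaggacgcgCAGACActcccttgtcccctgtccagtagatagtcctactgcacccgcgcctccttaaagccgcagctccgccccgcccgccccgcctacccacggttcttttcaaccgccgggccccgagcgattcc
Itih5: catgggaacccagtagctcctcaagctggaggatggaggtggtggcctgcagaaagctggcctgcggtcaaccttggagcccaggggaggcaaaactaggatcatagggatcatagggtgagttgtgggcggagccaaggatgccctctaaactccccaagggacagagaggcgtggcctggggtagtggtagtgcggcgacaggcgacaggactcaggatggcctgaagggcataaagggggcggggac
Ly6c1: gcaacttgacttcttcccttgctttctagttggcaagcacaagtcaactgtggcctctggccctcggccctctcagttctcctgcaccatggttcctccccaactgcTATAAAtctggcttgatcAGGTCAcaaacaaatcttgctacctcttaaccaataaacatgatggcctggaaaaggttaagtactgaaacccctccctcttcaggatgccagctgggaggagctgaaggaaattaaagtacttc
Capitals mark matches, on either strand, to the retinoid receptor half-site with the letters AGGTCA, to the SMAD motifs spelled GGCGCC or spelled CAGACA, to the core motif of hypoxia-inducible factors, which reads ACGTG, or to the TATA box, searched as TATAAA. RefSeq windows of 300 bases, from 250 before to 50 after the start, were available for 7 of the 10 members, with 8 windows in all, and *Clec3b*, *Scara5* and *Ly6a* had none. AGGTCA was found in 1 of the 8 windows against 16.3% of all 32851 windows, and the other motifs occurred in 11.9% (the SMAD motif of G and C only), 21.0% (the other SMAD motif), 19.6% (the hypoxia motif) and 13.6% (the TATA box) of all windows. Among the members, GGCGCC was found for *Pi16* and *Sema3c*, CAGACA for *Efhd1* and in both *Ly6c1* windows, and ACGTG for *Sema3c*. The *Ly6c1* windows overlap and share a CAGACA match, so the 8 windows are not separate. TATAAA was found for *Dpp4* and the more distal *Ly6c1* start, at -227 and -143 relative to the start. The *Itih5* window held none of the 5, so the windows show no motif shared by all members. The windows also differed in base composition, from 45.3% G and C in *Dpp4* to 75.7% in *Sema3c*, against a median of 52.7%.

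All 10 members were at least 2-fold lower in Vehicle than in Matrigel-only stromal cells, whereas 9.13% of the 8687 genes tested (a mean of at least 10 CPM over the 3 libraries) were that much lower. Every member passed the filter, and 9 of the 10 also reached 10 CPM in Vehicle taken alone, the exception being *Efhd1*. The median log2 ratio was -3.15 over the members and -0.03 over all genes tested. *Dpp4* was the 12th lowest of the 8687 ratios and the 8 others apart from *Ly6a* ranked between 17 and 135, while *Ly6a* ranked 576. Because the members were chosen with earlier results known, these counts and ranks, and the counts under palovarotene, give no independent support.

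Of the cell surface proteins, *Dpp4* (ENSMUSG00000035000, chr2:62330073-62412231, minus strand) encodes the dipeptidyl peptidase CD26, which cleaves chemokines and incretins. It was at 212 CPM in Matrigel-only (95% interval 206 to 219), 12.5 in Vehicle (11.1 to 14.0) and 121 in Palo (116 to 127). The Vehicle level was 16.99-fold below Matrigel-only, a log2 ratio of -4.09 (-4.26 to -3.92), and the largest drop among the members. *Cd34* (ENSMUSG00000016494, chr1:194938819-194961279, plus strand), a sialomucin of progenitors and endothelium, was at 916, 113 and 509 CPM in the same order. Its Vehicle level was 8.12-fold below Matrigel-only. *Ly6a* (ENSMUSG00000075602, chr15:74994877-74998031, minus strand) encodes Sca-1, a lipid-anchored antigen carried by many mouse progenitors and induced by interferon. Its levels were 2202 CPM (2181 to 2222), 906 (894 to 918) and 1269 (1252 to 1287). This drop, of 2.43-fold, was the smallest of the 10, and its interval did not overlap that of any other member. The neighbouring *Ly6c1* (ENSMUSG00000079018, chr15:75044018-75048830, minus strand), 46.0 kb from *Ly6a*, encodes another antigen of the same family and was at 821, 154 and 414 CPM, or 5.33-fold lower in Vehicle. *Scara5* (ENSMUSG00000022032, chr14:65666403-65764826, plus strand), a scavenger receptor that takes up ferritin, was at 89.9, 12.1 and 52.6 CPM, a 7.44-fold drop.

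The secreted products showed the same order of the 3 libraries. *Pi16* (ENSMUSG00000024011, chr17:29317680-29330593, plus strand), a peptidase inhibitor often taken as the leading marker of these cells, was at 886 CPM in Matrigel-only (873 to 899), 91.7 in Vehicle (87.9 to 95.6) and 352 in Palo (343 to 361). *Clec3b* (ENSMUSG00000025784, chr9:123150946-123157432, plus strand), which encodes the plasminogen-binding protein tetranectin, was at 906, 77.4 and 489 CPM. *Itih5* (ENSMUSG00000025780, chr2:10153571-10256529, plus strand), a heavy chain that binds hyaluronan, was at 421, 34.8 and 223 CPM. These drops amounted to 9.67-fold, 11.7-fold and 12.1-fold in Vehicle. The guidance factor *Sema3c* (ENSMUSG00000028780, chr5:17574281-17730268, plus strand) was at 551, 72.5 and 320 CPM, 7.60-fold lower in Vehicle. Inside the cell, *Efhd1* (ENSMUSG00000026255, chr1:87264363-87310839, plus strand), a calcium-binding protein of mitochondria, was at 107 CPM (103 to 112), 7.12 (6.09 to 8.28) and 54.6 (51.0 to 58.3). Its 15.1-fold drop was the next largest after that of *Dpp4*. The 3 libraries thus stood in 1 order for each member, Matrigel-only highest and Vehicle lowest, with no overlap of the counting intervals.

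**Figure D1:**
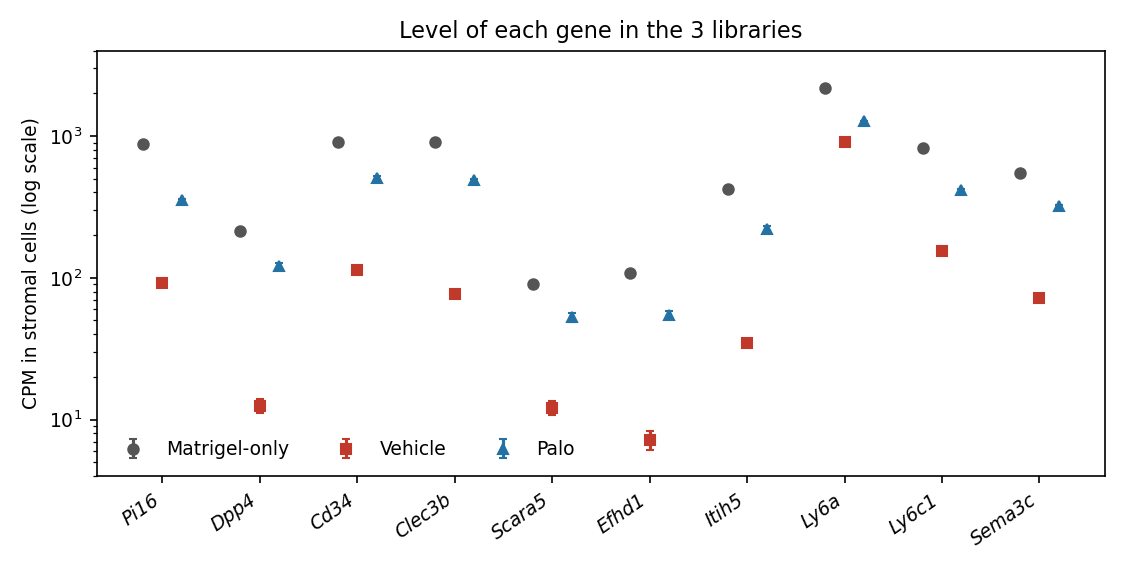
Level of each of the 10 genes in CPM (log axis) in the stromal cells of the 3 libraries, with 95% Poisson intervals that cover counting error only. Palo lies between the other libraries for every gene, and *Ly6a* has the smallest gap between Matrigel-only (2202) and Vehicle (906).

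Under palovarotene, 9 of the 10 members were at least 2-fold higher than in Vehicle, against 6.83% of the genes tested. The ratio ran from 2.69-fold for *Ly6c1* (log2 1.43, interval 1.37 to 1.49) to 9.70-fold for *Dpp4* (log2 3.28, 3.10 to 3.46). *Ly6a* was the exception, at 1.40-fold (log2 0.49, 0.46 to 0.51). The pattern that defines the 9, at least 2-fold lower in Vehicle and then at least 2-fold higher in Palo, held for 6.16% of all genes tested. None of the 10 was at least 2-fold lower in Palo than in Vehicle, a direction taken by 3.93% of genes.

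The level of Matrigel-only was not reached by any member. Palo stood between 50.4% (*Ly6c1*) and 58.5% (*Scara5*) of Matrigel-only for 9 members, and at 39.7% (38.5 to 40.9) for *Pi16*, the only one at least 2-fold lower, a change seen in 1.81% of genes. The 9 others lay just above the 50% limit. For *Ly6c1* (49.0 to 51.9) and *Efhd1* (50.8%, 46.9 to 55.0) the interval crossed it. The Palo count depended on which cells were kept. It was 5 of 10 (*Pi16*, *Clec3b*, *Efhd1*, *Itih5* and *Ly6c1*) without cells that held a *Pecam1*, *Cdh5* or *Kdr* UMI. It was 3 of 10 (*Pi16*, *Efhd1* and *Ly6c1*) without the 5% deepest cells. As a share of the drop from Matrigel-only to Vehicle, the part absent in Palo was 54.4% for *Dpp4*, 52.1% for *Scara5* and 51.6% for *Sema3c*, but 32.7% for *Pi16* and 28.0% for *Ly6a*. With day 5 as the only time sampled, members that were never lost in Palo masses and members that were lost and regained cannot be told apart.

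The shares of cells moved in the same direction as the levels. After thinning to 3100 UMIs, *Cd34* was detected in 76.9% of Matrigel-only stromal cells (exact 95% interval 74.9 to 78.8), 13.1% of Vehicle (11.4 to 15.1) and 57.4% of Palo cells (54.5 to 60.3). *Dpp4* was detected in 39.8%, 3.29% and 26.8%, and *Pi16* in 45.6%, 7.94% and 22.8%. For both genes the Vehicle share was far below the other libraries. *Ly6a* again stood apart, with 90.7%, 68.5% and 79.2%. Without thinning, the corresponding shares were 87.7%, 23.7% and 79.0% for *Cd34* and 94.3%, 87.1% and 90.8% for *Ly6a*. Macrophages, which should lack most of these transcripts, gave the background. These were cells in which *C1qa*, *C1qb*, *C1qc*, *Csf1r*, *Cd68* and *Adgre1* made up at least 0.5% of UMIs. They numbered 4258, 1806 and 3804, with a median depth of 2904, 3599.5 and 3860 UMIs. Shares at the same depth came from the 1916, 1063 and 2720 of them that reached 3100 UMIs. *Cd34* was detected in 1.67%, 0.793% and 0.983%. The *Pi16* shares in these cells were 3.42%, 1.29% and 1.92%, and those of *Ly6a* 7.28%, 22.7% and 7.40%. The Vehicle stromal shares of *Cd34* and *Pi16* therefore stayed above their background, by a smaller margin for *Pi16*.

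At equal depth, most Matrigel-only cells carried several of the transcripts together, and most Vehicle cells (68.0%) carried at most 1. A thinned cell held a mean of 5.65 members (Matrigel-only), 1.55 (Vehicle) and 3.86 (Palo). At least 3 members were detected in 81.1% of Matrigel-only (79.3 to 82.9), 13.4% of Vehicle (11.6 to 15.4) and 59.5% of Palo cells (56.5 to 62.3). The difference was -67.7 percentage points for Vehicle minus Matrigel-only (-70.2 to -65.0), 46.0 for Palo minus Vehicle (42.5 to 49.4) and -21.7 for Palo minus Matrigel-only (-25.0 to -18.3). Cells with all 10 members made up 7.37%, 0.474% and 3.46%. At the other end, cells with none made up 2.94%, 24.6% and 8.63%, and cells with exactly 1 made up 7.03%, 43.4% and 15.7%. With *Ly6a* left out, none of the other 9 was detected in 6.63% of Matrigel-only and 16.6% of Palo cells. In Vehicle this share was 69.4% among the cartilage cells defined below and 56.5% among the remaining stromal cells. Without thinning, which favours the deeper Vehicle cells, at least 3 members were found in 92.1%, 38.0% and 83.7%, and at most 1 in 3.60%, 30.5% and 6.93%.

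**Figure D2:**
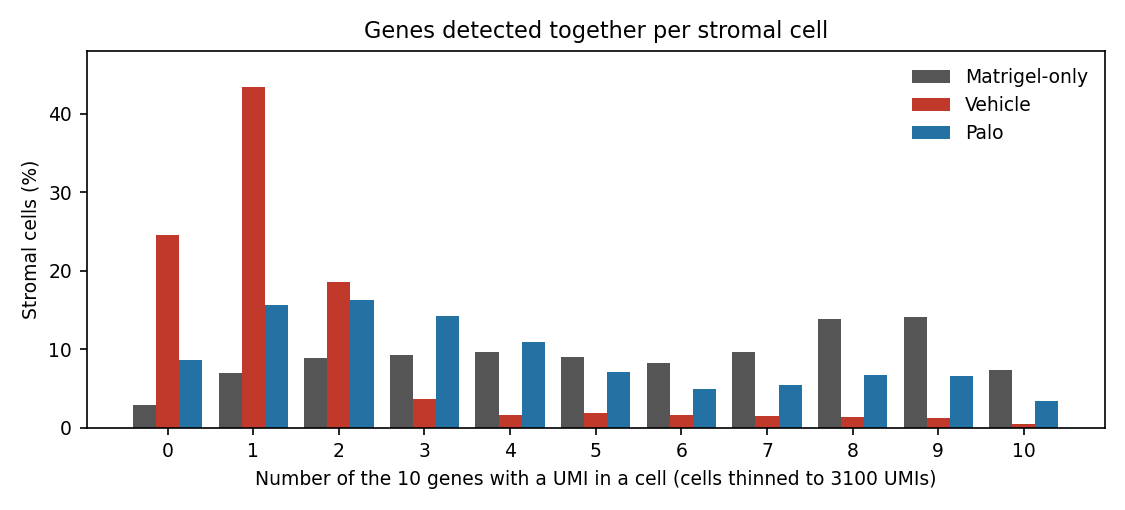
Share of stromal cells (vertical axis, %) by the number of the 10 genes with a UMI (horizontal axis), each cell thinned to 3100 UMIs, in Matrigel-only, Vehicle and Palo. Vehicle peaks at 1 gene (43.4% of cells), whereas Matrigel-only has 44.98% of its cells at 7 or more, against 22.25% in Palo and 4.64% in Vehicle.

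Per cell, the summed level of the 10 members was spread widely in every library. Its median was 6883 CPM per cell in Matrigel-only cells, 646 in those of Vehicle and 2319 in those of Palo, and its 90th percentile was 18625, 4093 and 13427 CPM. The upper tail thus differed less between Matrigel-only and Palo than the median did. In Vehicle, 25% of the cells held 72.1% of all member UMIs, compared with 45.5% in Matrigel-only and 60.0% in Palo. *Ly6a* alone gave 61.2% of the member UMIs in Vehicle, against 31.0% in Matrigel-only and 33.4% in Palo, so these sums reflect it most in Vehicle. With *Ly6a* left out, a calculation added after the values were seen, the medians were 4159, 113 and 1150 CPM, and the richest 25% of cells held 49.3%, 88.1% and 67.6% of the UMIs of the other 9.

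Detection of 1 member went with higher odds of every other. The odds ratio of joint detection at 3100 UMIs was above 1 for all 45 pairs in each library, with a median of 9.40 (Matrigel-only), 32.6 (Vehicle) and 8.59 (Palo). In Matrigel-only it ran from 3.94 (*Scara5* and *Efhd1*) to 30.3 (*Scara5* and *Ly6a*), and in Palo from 2.40 (*Ly6a* and *Sema3c*) to 28.4 (*Pi16* and *Clec3b*). Vehicle had the widest range, from 1.99 (*Ly6a* and *Sema3c*) to 194 (*Dpp4* and *Clec3b*). There, *Dpp4* and *Clec3b* were found together in 3.03% of cells, close to the 3.29% that held *Dpp4* at all. Over the 9 pairs of each member, the Vehicle medians were lowest for *Sema3c* (12.5) and *Ly6a* (13.1) and highest for *Clec3b* (94.6). *Sema3c* also had the lowest medians elsewhere, 4.75 in Matrigel-only and 4.83 in Palo, whereas those of *Ly6a* were 16.5 and 12.1, above the 8.61 and 8.33 of the other 36 pairs. With cartilage cells left out the Vehicle median was 30.6, and without thinning it was 14.5. Cells of 1 library share their source, so the odds ratios are a description. The share of pairs above 1 among all other genes was not computed, so the count of 45 is not set against a background.

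**Figure D3:**
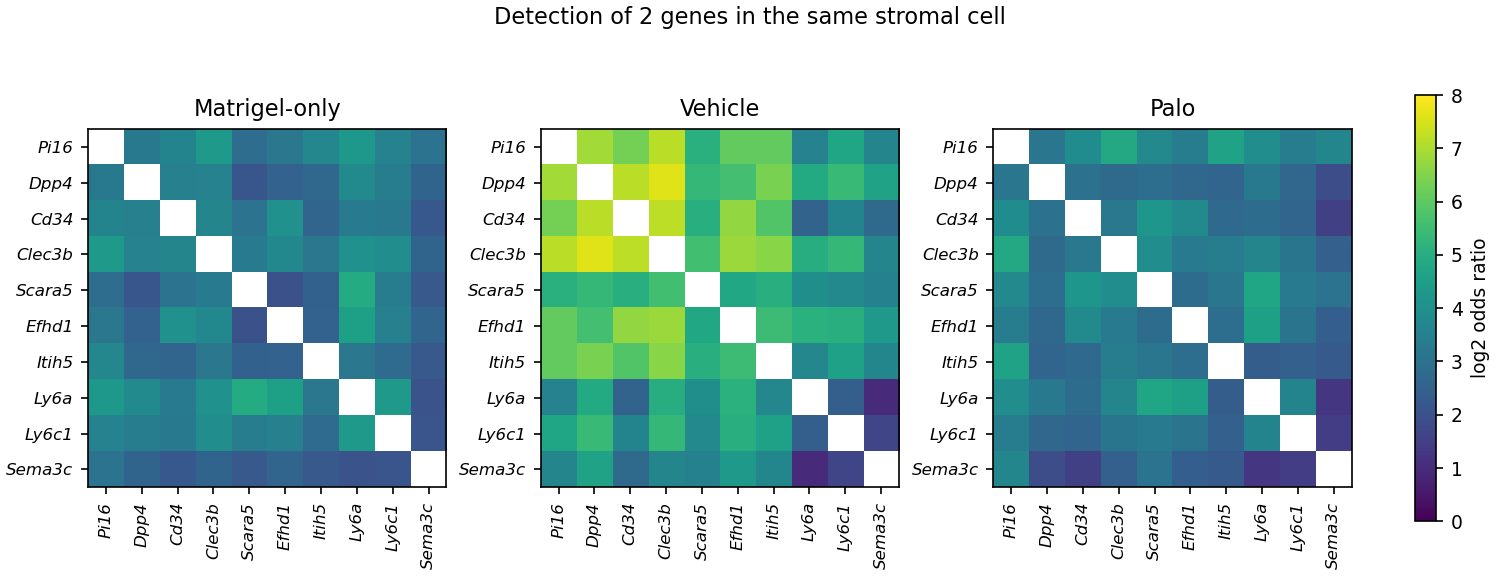
Log2 odds ratio of detecting both genes of a pair in the same stromal cell (colour), one panel per library, each cell thinned to 3100 UMIs and the diagonal left blank. All pairs lie above 0, and in Vehicle they range from *Ly6a* and *Sema3c* (odds ratio 1.99) to *Dpp4* and *Clec3b* (194).

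Cells that still carried the set were compared across libraries, a split chosen after the values above were seen. For each member, cells were taken in which at least 4 of the other 9 were detected. Such cells made up 62.5% to 71.4% of Matrigel-only, 8.14% to 9.70% of Vehicle and 34.6% to 44.6% of Palo stromal cells, depending on the member left out. The cells were selected on members that occur together, so levels within them are bound to lie closer than over all cells, and nothing is read from that. In them *Cd34* was at 1335 CPM (Matrigel-only), 1284 (Vehicle) and 1078 (Palo), *Scara5* at 129, 130 and 116, and *Ly6a* at 3105, 3274 and 2365. The ratio of Vehicle to Matrigel-only in these cells had a median of 0.806 and ran from 0.4995 for *Dpp4*, with *Efhd1* (0.520) and *Sema3c* (0.559) next, to 1.05 for *Ly6a*. For Palo over Matrigel-only the ratio ran from 0.621 for *Pi16* to 0.896 for *Scara5*. For Palo over Vehicle it had a median of 1.02 and ran from 0.707 for *Pi16* to 1.57 for *Dpp4*.

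In cells with at most 1 of the other 9, which were also selected on members that occur together, the members differed from each other. *Ly6a* was at 569 CPM (Matrigel-only), 689 (Vehicle) and 497 (Palo), so its Vehicle level was 1.21 times that of Matrigel-only. *Clec3b* was at 31.3, 1.08 and 28.3 CPM. *Dpp4* was at 9.88, 0.441 and 14.6 CPM. The Vehicle values of *Clec3b* and *Dpp4* lay below those of Vehicle macrophages (2.16 and 1.89 CPM) and carry no interval. Cells with at most 1 of the other 9 made up 68.1% to 85.9% of the Vehicle stromal cells.

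**Figure D4:**
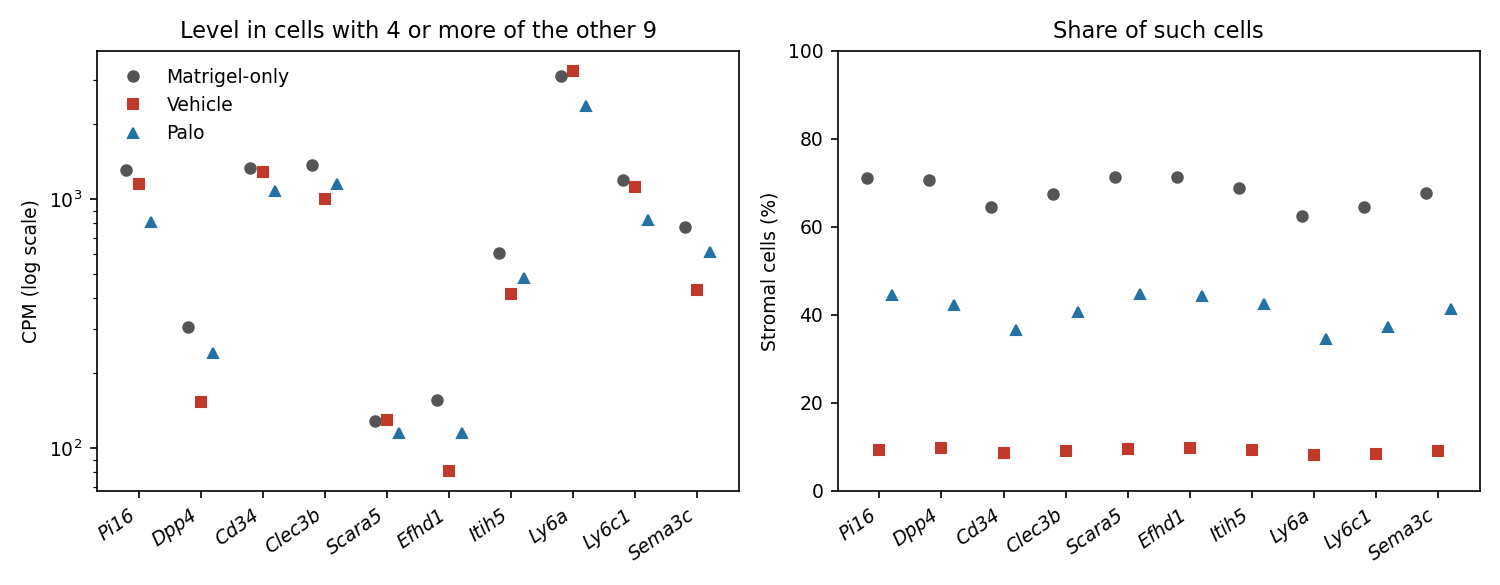
Left, level of each gene in CPM (log axis) in stromal cells in which at least 4 of the other 9 were detected; right, the share of such cells (%), by library. Shares are 62.5–71.4% in Matrigel-only and 8.14–9.70% in Vehicle, and Vehicle levels within the selected cells lie between 0.4995 and 1.05 times those of Matrigel-only.

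Vehicle stromal cells included cells that had begun to make cartilage, and the members were split among them. Cells in which *Acan*, *Col2a1*, *Col9a1*, *Col9a3* and *Col11a2* reached 0.1% of UMIs numbered 561 (40.9%) in Vehicle and 0 in the other libraries. In these cells *Pi16* was at 4.66 CPM (3.402 to 6.24), *Dpp4* at 0.725, *Efhd1* at 0.622 and *Clec3b* at 3.83. These values are close to those of the Vehicle macrophages, which had 4.31 CPM of *Pi16* (2.95 to 6.09) and 2.16 of *Clec3b*. The cartilage cells were deeper, with a median of 16908 UMIs against 3599.5, so at equal CPM they held more UMIs per cell. *Ly6a*, in contrast, was at 978 CPM (958 to 998) in the cartilage cells, above the 856 CPM (841 to 872) of the remaining Vehicle stromal cells. Of the latter, cells with a *Sox9* UMI were at 723 CPM. Those without one were at 1248 CPM (1211 to 1285), above the cartilage cells. *Ly6c1* at 82.5 CPM and *Sema3c* at 42.0 also stayed above the macrophage levels of 3.50 and 1.08. *Cd34* at 7.67 CPM (6.02 to 9.63) and *Scara5* at 2.80 (1.84 to 4.07) lay above the macrophage levels of 2.96 (1.86 to 4.49) and 0.270 (0.0326 to 0.974) by less, without overlap of the intervals. At least 3 members were detected in 2.83% of the cartilage cells (1.61 to 4.60) and in 21.0% of the other Vehicle cells.

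The counts of members were the same without the cartilage cells. With these left out, all 10 members were at least 2-fold lower in Vehicle, with Vehicle at 9.72% (*Dpp4*) to 38.9% (*Ly6a*) of Matrigel-only, and 9 were at least 2-fold higher in Palo. Shares over all genes were not computed within this or any other subset of cells, so the subset counts stand without a background. The gate is a limit on UMIs, and cells outside it can hold cartilage transcripts. Without thinning, an *Acan* UMI was found in 56.7% of Vehicle stromal cells, more than the 40.9% in the gate. Cells outside the gate were divided further by *Sox9*, the transcription factor that starts the chondrocyte programme. A *Sox9* UMI was found in 494 of 2085 Matrigel-only, 559 of 812 Vehicle and 408 of 1184 Palo cells outside the cartilage gate, a count that rises with depth. Vehicle cells with the UMI had 93.4 CPM of *Cd34* and cells without it 455 CPM. In Matrigel-only these values were 436 and 1112 CPM, and in Palo 306 and 639 CPM. The cells with *Sox9* were the lower ones in each library.

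Among the cells without a *Sox9* UMI, all 10 members were still at least 2-fold lower in Vehicle than in Matrigel-only, at 22.1% (*Dpp4*) to 49.5% (*Ly6a*), but 4 rather than 9 were at least 2-fold higher in Palo than in Vehicle (*Dpp4*, *Efhd1*, *Itih5* and *Sema3c*). At least 3 members were detected in 87.5%, 42.5% and 68.0% of these cells. Among cells with a *Sox9* UMI, 9 members were at least 2-fold lower in Vehicle and 7 at least 2-fold higher in Palo. *Pi16* behaved differently among the cells with a *Sox9* UMI: it was at 177 CPM in Matrigel-only, 62.5 in Vehicle (57.8 to 67.5) and 50.8 in Palo (45.3 to 56.7), so that Palo was not above Vehicle, whereas *Dpp4* was at 62.5, 7.03 and 59.5 CPM.

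**Figure D5:**
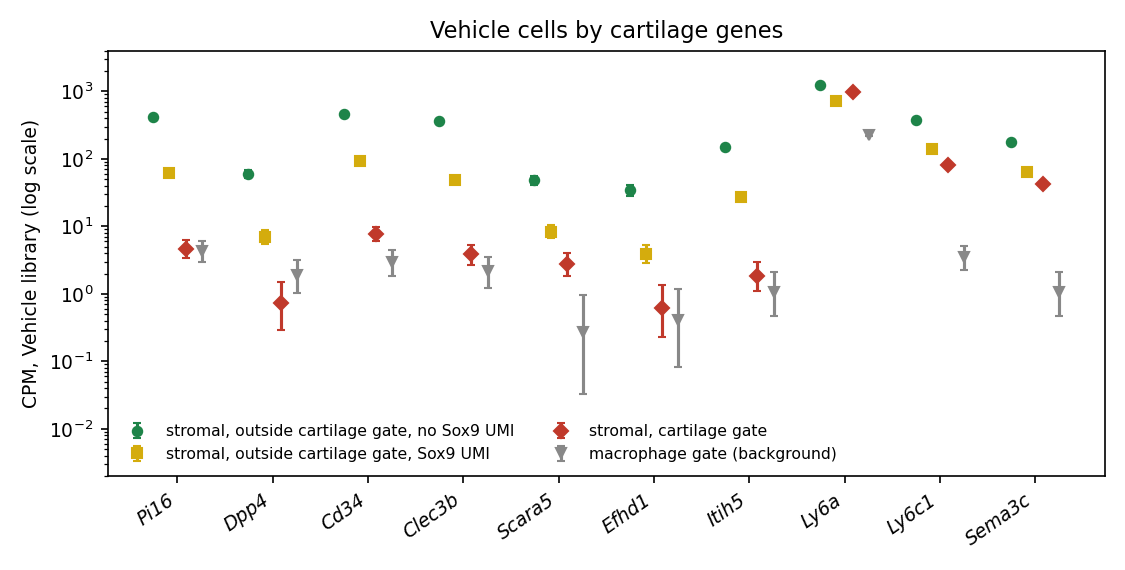
Level of each gene in CPM (log axis) in Vehicle cells, for stromal cells outside the cartilage gate without and with a *Sox9* UMI, stromal cells in the cartilage gate, and macrophages as background, with 95% Poisson intervals that cover counting error only. *Ly6a* is the only gene whose cartilage-gate level (978) lies above that of the cells with a *Sox9* UMI outside the gate (723).

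The odds ratio of joint detection with *Sox9* was below 1 for 9 of the members in all 3 libraries. At equal depth it was 0.217, 0.140 and 0.181 for *Pi16* in Matrigel-only, Vehicle and Palo, and 0.249, 0.110 and 0.342 for *Clec3b*. *Ly6a* was the exception, with 0.538 and 0.565 in Matrigel-only and Palo but 1.40 in Vehicle. *Pdgfra*, a receptor of fibroblasts in general, showed a library-dependent relation. Its odds ratio with *Cd34* was 1.18 (Matrigel-only), 4.22 (Vehicle) and 1.03 (Palo), and with *Clec3b* it was 1.24, 5.24 and 1.30. That of *Prrx1*, another general fibroblast gene, was 1.12, 2.75 and 1.08 with *Cd34* and 0.928, 2.98 and 0.890 with *Clec3b*. With *Ly6a* the *Prrx1* values were 1.17, 0.995 and 1.16. A higher odds ratio in Vehicle was thus not limited to pairs of members.

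Other genes of adventitial fibroblasts mostly had the same pattern. The gene lists here and below were drawn from general knowledge of these cells, but with earlier results of these data known. They therefore give no independent support. Of 24 such genes 23 passed the filter, 20 were at least 2-fold lower in Vehicle than in Matrigel-only and 19 at least 2-fold higher in Palo than in Vehicle. The median log2 ratios were -2.31 and 1.84, against -0.03 and 0.01 over all genes. *Igfbp5*, which binds insulin-like growth factors, was at 1219 (Matrigel-only), 75.03 (Vehicle) and 683 CPM (Palo). *Cd55*, an inhibitor of complement, was at 197, 20.1 and 149 CPM, and *Cd248*, a fibroblast sialomucin, at 1073, 217 and 793. *Pcolce2*, which enhances procollagen cleavage, did the opposite, at 132, 169 and 50.2 CPM.

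The lower Vehicle levels were not particular to adventitial genes. Of 10 tested genes of parenchymal fibroblasts, all 10 were below Matrigel-only in Vehicle, 8 of them at least 2-fold, and all 10 were above Vehicle in Palo, 5 of them at least 2-fold. Their median log2 ratios were -2.80 and 1.37. For the basement membrane collagen *Col4a1*, with 123, 13.0 and 22.7 CPM, Palo was 1.75-fold above Vehicle but at only 18.5% of Matrigel-only. Of 13 general fibroblast genes 5 were at least 2-fold lower in Vehicle, with a median log2 ratio of -0.83, and 6 were at least 2-fold higher in Palo. *Pdgfrb* was at 122, 148 and 127 CPM and *Col5a1* at 2326, 2669 and 2303, while *Thy1* was at 681, 128 and 595. The loss was thus not shared by all fibroblast genes. Of 7 tested genes of committed preadipocytes, 5 were at least 2-fold lower in Vehicle and 3 at least 2-fold higher in Palo, and 1 at least 2-fold lower in Palo than in Vehicle. The preadipocyte factor *Dlk1* was at 122, 2.03 and 168 CPM, whereas the fatty acid carrier *Fabp4* was at 57.9, 13.4 and 1.958 CPM.

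Cartilage genes ran the other way. All 11 tested cartilage genes were at least 2-fold higher in Vehicle than in Matrigel-only (4.02% of all genes) and at least 2-fold lower in Palo than in Vehicle, with *Sox9* itself at 53.5, 461 and 57.3 CPM. Of 9 activated or contractile genes 6 were at least 2-fold higher in Vehicle, for example the smooth muscle actin *Acta2* at 176, 828 and 316 CPM. In Palo 2 of the 9 were at least 2-fold lower than in Vehicle and 1 at least 2-fold higher: *Lrrc15*, at 293, 173 and 397 CPM, which had the order of Vehicle and Matrigel-only seen for the members. None of the 10 cycling genes passed 2-fold in any of these comparisons. Interferon-induced genes were examined because *Ly6a* and *Ly6c1* respond to interferon: of 9 tested, 6 were at least 2-fold lower in Vehicle (median log2 ratio -1.55) and 2 at least 2-fold higher in Palo, and *Ifi27l2a* was at 616, 111 and 350 CPM. Their part in the Ly6 values was not tested.

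The genes most like the members within a library were found by comparing the 25% of stromal cells richest in member UMIs with the 25% poorest, on log2(CPM + 5). The 10 non-members with the largest smallest ratio over the 3 libraries were *Igfbp5*, *Tnxb*, *Efemp1*, *Cd55*, *Cadm3*, *Akr1c18*, *Adamts15*, *Plpp3*, *Heg1* and *Tmem100*. *Igfbp5* was at 132 CPM in the poorest and 4184 in the richest cells of Matrigel-only, at 7.03 and 291 in those of Vehicle and at 99.1 and 2727 in those of Palo. The matrix protein *Tnxb* was at 114 and 1600, 0.686 and 282, and 30.3 and 1369 CPM. At the low end were *Tagln*, *Acta2*, *Lrrc15*, *Kif26b*, *Col8a2*, *Tpm2*, *Myo7a*, *Cnn2*, *Podnl1* and *Col8a1*. *Acta2* was at 1.93 CPM in the rich and 482 in the poor cells of Matrigel-only, 155 and 1595 in Vehicle, and 12.2 and 657 in Palo. Rich and poor cells differed in depth, with medians of 7056 and 10633 UMIs in Matrigel-only and 10172 and 13656 in Palo, and the part of depth was not tested. With *Ly6a* left out of the sum, 9 of the 10 high genes stayed in the list (not *Tmem100*) but only 3 of the 10 low genes, *Tagln*, *Acta2* and *Podnl1*.

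Relatives of the members did not all follow them. *Ly6e*, of the same family as *Ly6a*, was at 524, 247 and 341 CPM, a log2 ratio of Vehicle to Matrigel-only of -1.09, and *Ly6c2*, the near-identical neighbour of *Ly6c1*, was below 1.1 CPM throughout. Reads shared by *Ly6c1* and *Ly6c2* may be split or dropped in counting, so the *Ly6c1* level is uncertain to that extent. *Fap*, the closest relative of *Dpp4*, was at 125, 24.7 and 83.5 CPM, whereas the intracellular *Dpp8* was at 36.2, 37.2 and 34.0. *Scara3* was at 241, 49.6 and 151 CPM, in the order seen for *Scara5*. *Sema3d* was at 83.7, 65.2 and 54.5 CPM, unlike *Sema3c*, and *Efhd2* at 72.9, 53.1 and 68.8, unlike *Efhd1*.

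Outside the stromal cells the members were sparse, with some exceptions. In Matrigel-only 93.8% (*Dpp4*) to 99.4% (*Scara5*) of each member's UMIs lay in stromal cells. In Vehicle this held for 67.8% of *Dpp4* (63.2 to 72.2) and 83.5% of *Ly6a* (83.0 to 83.9) UMIs, and for 91.8% to 98.5% of the other 8. *Dpp4* and *Ly6a* thus had the largest shares of their Vehicle UMIs outside the stromal cells.

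Summed macrophage markers, *Kdr* of the endothelial list and *Kcnj8* and *Abcc9* of the pericyte list had the members' order of the libraries. Several other lists did not when summed. The 12 macrophage markers, all above 0 in each library, summed to 1101 (Matrigel-only), 368 (Vehicle) and 904 CPM (Palo) in stromal cells, compared with 30114 to 35208 CPM in macrophages. Without cells that held a *Ptprc* UMI or at least 0.2% of UMIs from *C1qa*, *C1qb*, *C1qc*, *Lyz2* and *Tyrobp*, all 10 members were at least 2-fold lower in Vehicle, 9 at least 2-fold higher in Palo, and 2 (*Pi16* and *Ly6c1*) at least 2-fold lower in Palo than in Matrigel-only. The 10 endothelial markers summed to 24.3, 11.4 and 20.8 CPM, of which *Kdr* gave 17.8, 2.54 and 11.6, while *Emcn*, *Cldn5* and *Cdh5* were at most at 0.189. *Egfl7* of the same list, at 3.19, 5.30 and 3.79 CPM, was highest in Vehicle instead. Cells with a *Pecam1*, *Cdh5* or *Kdr* UMI made up 12.9%, 4.22% and 11.1% of stromal cells and were rich in the members, with *Pi16* at 2095, 766 and 1288 CPM. Most of these cells held *Kdr*, which was found without thinning in 12.1%, 2.69% and 10.3% of stromal cells. *Pecam1* was found in 0.671%, 1.24% and 0.760%, so the cells cannot be taken as endothelial. Without the cells that held a UMI of any of these genes, *Pi16* was at 713, 64.6 and 241 CPM. The counts of members at least 2-fold lower in Vehicle and at least 2-fold higher in Palo were again 10 and 9. Among the cells that did hold such a UMI they were 8 and 5, with *Scara5* in Vehicle at 67.1% of Matrigel-only. The other marker lists stayed low: pericyte and smooth muscle markers summed to 61.6, 99.1 and 48.3 CPM, T and NK cell markers to 2.24, 11.1 and 2.78, Schwann cell markers to 10.2, 23.3 and 4.93, and muscle markers to 2.49, 19.9 and 8.34. Each of these sums was highest in Vehicle, but each rested mostly on a single gene there. These were *Cspg4* (11.3, 79.6 and 15.3 CPM), *Trac* (0.349, 7.67 and 0.884), *S100b* (8.48, 21.3 and 3.92) and *Des* (2.49, 19.7 and 8.34). *Kcnj8* (30.1, 6.74 and 18.3 CPM) and *Abcc9* (15.8, 2.37 and 8.78) of the pericyte list were lowest in Vehicle, whereas *Mcam*, *Notch3* and *Myh11* were highest there. Lymphatic, adipocyte, keratinocyte and mesothelial markers reached at most 6.78 CPM in any library, and the part of these cells in the member values was not tested.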

How the data were processed

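Single cells of day 5 masses were sequenced as 1 droplet library per group. Counts of UMIs per gene and barcode, not normalized, were deposited by the authors, who had used Cell Ranger 3.0.2 and the mm10 build. The libraries held 44252421 to 46901673 UMIs on 6065 to 9249 barcodes. Barcodes with 200 to 6000 genes and at most 5% mitochondrial UMIs were kept, after the limits of the study. No doublet caller was run, and mixed or very deep barcodes were left out as alternatives.

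UMIs were summed over stromal cells and divided by all their UMIs. CPM carry exact Poisson intervals, ratios conditional binomial, shares Clopper-Pearson and differences of shares Newcombe intervals, all at 95%. Thinned shares came from the hypergeometric formula, at the lowest of the libraries' 10th percentiles of UMIs rounded down to a multiple of 100. The formulas were tested on simulated data. All 10 members and the lists of related genes were chosen with earlier results of these data known. Named genes outside the members were examples from those lists, picked after their values were seen, or were taken by likeness over the upper and lower 25% of cells. Gene positions are those of GENCODE vM21. Python 3.11.15 with numpy 2.4.6, scipy 1.17.1 and pandas 2.3.3, and edgeR 4.0.16 in R 4.3.3 for TMM factors, were used. The clusters of the study were not used here.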

Additional observations from a re-analysis of the deposited data

Results flagged for a closer look

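*Ly6a* was measured outside the stromal cells as well, and its levels there were higher in Vehicle than in the Matrigel-only control. In macrophages it was at 38.3 CPM in Matrigel-only (35.2 to 41.7), 229 in Vehicle (218 to 240) and 44.8 in Palo (41.6 to 48.2), or 5.98-fold higher in Vehicle than in Matrigel-only. *Cd34*, in the same macrophages, was at 6.53, 2.96 and 3.28 CPM. In cells with a T cell receptor or Cd3 UMI, which numbered 48, 192 and 47, *Ly6a* was at 228, 1226 and 208 CPM. In the remaining cells outside the stromal gate it was at 23.5, 201 and 15.3 CPM. Vehicle was thus the highest library in each of these cell groups, the reverse of its place in stromal cells, and with 1 library per group the difference was not tested.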

How the results depend on the processing

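No paired analysis was possible because each group has 1 library, and for the same reason no replicate could be left out. Across 17 alternatives for the level of each member, 0 of 170 log2 ratios changed sign in any of the comparisons. Many nevertheless left the counting interval of the reported ratio. They numbered 68 for Vehicle over Matrigel-only, 55 for Palo over Vehicle and 30 for Palo over Matrigel-only. Vehicle over Matrigel-only stayed between -4.39 and -1.01, Palo over Vehicle between 0.27 and 3.58 and Palo over Matrigel-only between -1.56 and -0.63. Some subsets described above were not among these alternatives, and there the direction could differ. For example, *Pi16* was lower in Palo than in Vehicle in cells outside the cartilage gate with a *Sox9* UMI (ratio 0.813). In cells with at least 4 of the other 9 members, *Pi16* (0.707), *Ly6a* (0.722), *Ly6c1* (0.739), *Cd34* (0.840) and *Scara5* (0.889) were lower in Palo than in Vehicle. The remaining members were higher there. Those cells were selected on members that occur together, so nothing is read from these ratios. The count of members at least 2-fold lower in Vehicle was 10 in each of the 17 alternatives, and 9 at a fold of 3. Outside these alternatives it was 9 in the cells with a *Sox9* UMI and 8 in those with a *Pecam1*, *Cdh5* or *Kdr* UMI. The count at least 2-fold higher in Palo than in Vehicle was 4 in cells outside the cartilage gate without a *Sox9* UMI, an alternative added after the data were seen, and 8 at a fold of 3. The count at least 2-fold lower in Palo than in Matrigel-only was the least stable, because 9 members lay near the limit. It was 2 without mixed barcodes, 5 without cells with a *Pecam1*, *Cdh5* or *Kdr* UMI and 3 without the deepest cells. It was 2 with the mean over cells, 10 at a fold of 1.5 and 0 at a fold of 3.

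The difference in cells with at least 3 members, Vehicle minus Matrigel-only, was -60.2 percentage points without cartilage cells, -45.0 in cells without a *Sox9* UMI, -54.1 without thinning, -54.2 at 1000 UMIs, -58.1 for at least 2 members, -54.1 for at least 5 and -49.1 without *Ly6a*, *Ly6c1* and *Cd34*. Palo minus Vehicle was 38.5 percentage points without cartilage cells, 25.5 in cells without a *Sox9* UMI, 27.04 at 1000 UMIs, 52.0 at 5000 UMIs, 26.2 for at least 5 members and 22.9 without those 3 genes. All 135 odds ratios stayed above 1 at each depth, while their Vehicle median was 14.5 without thinning and 16.7 at 1000 UMIs. The share of genes at least 2-fold lower in Palo than in Matrigel-only was 3.89% with genes of at least 1 CPM. Depth limits *Efhd1*, *Dpp4* and *Scara5* most, with 168, 295 and 285 UMIs in Vehicle stromal cells.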
